A study of Mus musculus with 8 samples.

Results

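The genes described here encode the machinery by which macrophages present antigen on MHC class II molecules: H2-Aa, H2-Ab1, H2-Eb1, H2-DMa, H2-DMb1, Cd74 and Ciita. They were chosen by symbol, and all 7 were found among the 24421 gene symbols listed for every library. The series holds 8 RNA-seq libraries of primary mouse macrophages. The groups were wild type (WT, 3 libraries), LysM-DKO (3 libraries) and ABCG1KO (2 libraries), and all mice received a normal diet. The series describes its double knockout as an epsin knockout, and LysM-DKO was taken to be that group. Epsins are adaptors of clathrin-mediated endocytosis, and ABCG1 is a transporter that carries cholesterol out of cells. LysM is another name of Lyz2, a gene whose promoter is active in myeloid cells. The tissue of origin, strain, age and sex of the mice and the independence of the replicates are not given in the sources used here, so p-values measure only the spread between these libraries.

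MHC class II molecules are pairs of an alpha and a beta chain that carry peptides from endocytosed proteins to the cell surface for CD4+ T cells. The invariant chain, encoded by Cd74, occupies the groove of a new pair until proteases trim it, and H2-DM then exchanges the remaining fragment for a peptide. Ciita encodes the class II transactivator, which is brought to the promoters of these genes by factors bound at the X and Y boxes and which interferon gamma induces in macrophages.

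The 5 H2 members lie in the MHC on chromosome 17 of GRCm38, between positions 34119541 and 34316674. H2-Aa is on the minus strand and the other 4 are on the plus strand. The promoters of 2 members and of 2 other class II chain genes are shown because they hold letters that match the X box core and the Y box. The capitals mark the X box core and the Y box, and each stretch is written 5′ to 3′ on the strand of its gene, from the RefSeq promoter windows of GRCm38.p6. H2-Aa lies at chr17:34287867-34287929 (minus strand), H2-Eb1 at chr17:34305751-34305812, H2-Ob at chr17:34238793-34238852 and H2-Eb2 at chr17:34325518-34325579 (all plus strand).
H2-Aa: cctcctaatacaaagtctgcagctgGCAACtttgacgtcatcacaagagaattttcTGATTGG
H2-Eb1: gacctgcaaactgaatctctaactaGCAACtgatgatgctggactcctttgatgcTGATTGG
H2-Ob: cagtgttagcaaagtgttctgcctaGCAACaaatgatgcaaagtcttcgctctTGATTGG
H2-Eb2: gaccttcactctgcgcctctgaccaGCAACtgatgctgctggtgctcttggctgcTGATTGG

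The letters searched were GNAAC followed, after 20 to 30 bases, by TGATTGG, an arrangement chosen after the sequences were seen. For the class II genes it was searched on the strand of the gene, and for the count over all windows on both strands. The Y box was searched on both strands throughout, and the X box was not searched alone. The gap between both boxes was 26 bases in H2-Aa, 25 in H2-Eb1 and H2-Eb2 and 23 in H2-Ob. H2-DMb1 and H2-Oa windows also held it, each with a gap of 26 bases. Of all 32851 windows of 300 bases, 106 (0.323%) held the arrangement and 2568 (7.82%) held the Y box, with or without the arrangement. Neither window of H2-DMa held the arrangement or the Y box, and the H2-DMb2 window held the Y box but not the arrangement on the strand of the gene. H2-Ab1, Cd74 and Ciita had no window in the table. A match is a match of letters only. Outside the MHC, Ciita lies on chromosome 16 (10480059 to 10528418) and Cd74 on chromosome 18.

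Counts in genes ran from 29567615 to 41888516 per library. Levels are given as CPM, the usual depth-scaled unit of read counts, scaled by edgeR's TMM factors, with the standard deviation (SD) over the libraries of a group. The genotype check gave Abcg1 at 345 to 405 CPM in WT and 60.4 and 73.4 CPM in ABCG1KO. Epn1 was at 191 to 230 CPM in WT and 155 to 183 CPM in LysM-DKO, and Epn2 at 4.97 to 8.86 and 5.67 to 13.2 CPM. Most epsin counts thus remained in the libraries labelled LysM-DKO, but counts per gene do not show whether a transcript was complete. Lyz2, the gene also called LysM, was at 13004 to 15709.5 CPM in WT and 6177 to 8105 CPM in LysM-DKO. The part of the genotype in this was not tested. Reads with several alignments made up 6.93% and 6.74% of counted reads in ABCG1KO and 2.65% to 3.01% in the other libraries, and reads outside annotated genes 13.8% and 10.2% against 4.26% to 6.07%. Both ABCG1KO libraries and LysM-DKO 1 had Ddx3y, a Y-linked gene, at 81.6 to 94.8 CPM, and the other 5 libraries had Xist at 79.1 to 265 CPM. Sex and genotype therefore cannot be told apart in ABCG1KO against WT, and the sexes were not balanced in ABCG1KO against LysM-DKO. The higher shares of reads with several alignments and outside annotated genes also go with ABCG1KO. Their part in its comparisons was not tested.

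All 7 genes had their highest WT value in WT 2 and their highest LysM-DKO value in LysM-DKO 2. The 3 classical chains and Cd74 were higher in both ABCG1KO libraries than in any other library, whereas Ciita was not. By edgeR's quasi-likelihood test, with Benjamini-Hochberg adjustment over 13821 genes and a threshold of 0.05, 0 of the 7 members were called in any of the 3 comparisons. The spread within WT and LysM-DKO was large beside these differences. In bulk RNA, fewer cells of a type and less RNA per cell cannot be told apart.

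**Figure D1:**
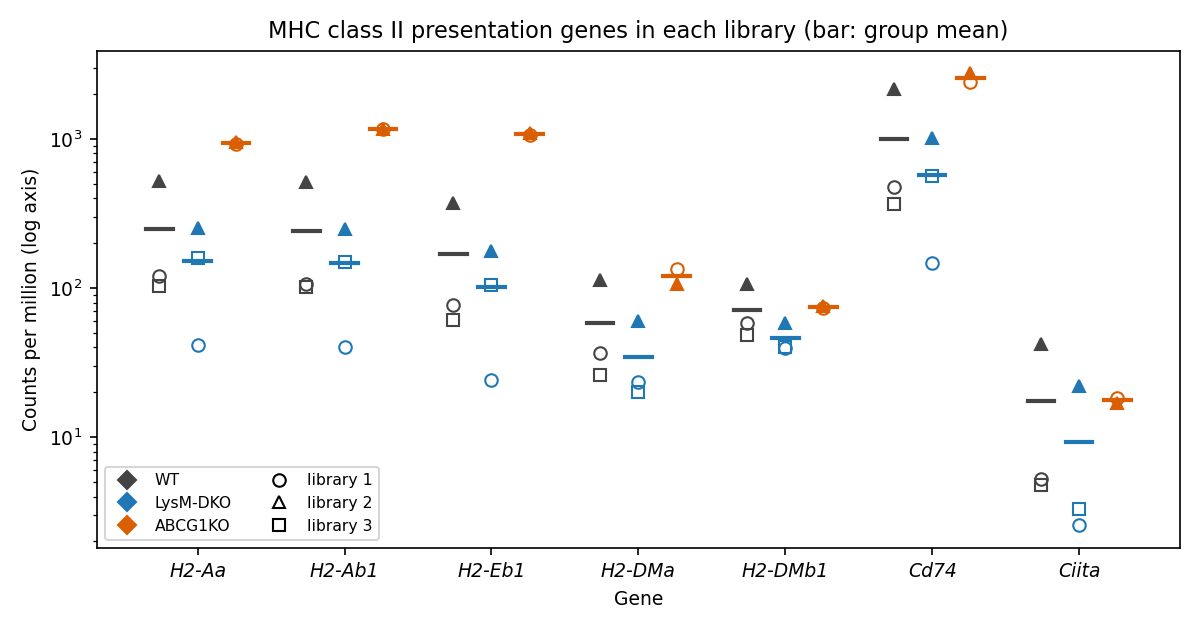
Level of each class II gene in each library, in CPM on a log axis, with colour for genotype, marker shape for library number and a bar at the group mean. The library 2 markers (filled triangles) top WT and LysM-DKO for every gene, and both ABCG1KO libraries stand above all others for H2-Aa, H2-Ab1, H2-Eb1 and Cd74.

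H2-Aa encodes the alpha chain of H2-A, the class II molecule present in all common mouse strains. Its level was 120.5, 523 and 103 CPM in WT 1, 2 and 3, 41.7, 254 and 159.6 CPM in LysM-DKO 1, 2 and 3, and 925 and 952 CPM in ABCG1KO 1 and 2. Both ABCG1KO libraries lay above every other library, and the lower of them was 1.77 times WT 2 and 3.64 times LysM-DKO 2. The WT and LysM-DKO values overlapped. The means were 249 ± 238 (SD, n = 3), 152 ± 106 (n = 3) and 938 ± 19.4 CPM (n = 2).

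H2-Ab1 encodes the beta chain that pairs with the H2-Aa product. It was at 106, 516 and 101 CPM in WT, 40.0, 250.03 and 151 CPM in LysM-DKO and 1172 and 1174 CPM in ABCG1KO. The order of the libraries was that of H2-Aa, and ABCG1KO again did not overlap the other groups. The ABCG1KO mean was 2.27 times the level in WT 2.

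H2-Eb1 encodes the beta chain of the second class II molecule, H2-E. Its level was 77.1, 373 and 60.8 CPM in WT, 24.1, 177 and 105 CPM in LysM-DKO, and 1058 and 1091 CPM in ABCG1KO. Of the 7 members it had the widest gap between ABCG1KO and the other groups, with the lower ABCG1KO library at 2.84 times WT 2 and 5.96 times LysM-DKO 2. H2-Ea-ps, the gene model for the matching alpha chain, which some laboratory mouse haplotypes do not transcribe, had 0 counts in all 8 libraries. A count of 0 allows up to 3 counts, or 0.0708 to 0.0941 CPM depending on the library, and this limit covers counting error only.

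Cd74 encodes the invariant chain, and it had the highest level per kilobase of the 7 in each group. It was at 473, 2159.7 and 366 CPM in WT, 146, 1010.1 and 566 CPM in LysM-DKO, and 2392 and 2752 CPM in ABCG1KO. ABCG1KO lay above all other libraries, but its lower library was only 1.11 times WT 2. WT 2 stood at 5.15 times the mean of WT 1 and WT 3, and LysM-DKO 2 at 2.84 times the mean of LysM-DKO 1 and 3.

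H2-DMa and H2-DMb1 encode the chains of H2-DM, which catalyses peptide exchange. H2-DMa was at 36.7, 113 and 26.2 CPM in WT, 23.3, 60.4 and 20.2 CPM in LysM-DKO, and 133 and 107 CPM in ABCG1KO. ABCG1KO exceeded LysM-DKO without overlap but spanned the level of WT 2. H2-DMb1 was at 57.9, 106 and 48.7 CPM in WT, 39.7, 58.1 and 40.3 CPM in LysM-DKO, and 73.9 and 75.3 CPM in ABCG1KO. It varied least of the 7, with WT 2 at 1.99 times the mean of the other WT libraries, and both ABCG1KO values fell inside the range of WT.

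Both DM genes share sequence with other genes, and their levels are uncertain to that extent. Of the 50-base words in H2-DMb1 transcripts, 22.7% also occur in transcripts of H2-DMb2, its close copy, and 8.43% of those of H2-DMa match Brd2 on the opposite strand, over 360 exon bases. The share of reads with several alignments was higher in ABCG1KO, and its part in the DM values was not tested. Shared words made up 1.46% for Ciita (Dexi, opposite strand), 0.514% for H2-Aa and 0 for H2-Ab1, H2-Eb1 and Cd74.

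Ciita, the transactivator gene, followed another order. Its level was 5.28, 42.1 and 4.76 CPM in WT, 2.57, 22.1 and 3.30 CPM in LysM-DKO, and 18.3 and 17.1 CPM in ABCG1KO. WT 2 was the highest of the 8 libraries and LysM-DKO 2 the next, and both ABCG1KO libraries lay between these and the other 4. WT 2 was at 8.40 times the mean of WT 1 and 3, and LysM-DKO 2 at 7.53 times that of LysM-DKO 1 and 3, the widest such gaps of the 7 genes. The ABCG1KO mean was 0.420 times the level of WT 2, while for H2-Eb1 the same ratio was 2.88.

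The comparison of ABCG1KO with WT asks what the loss of the transporter changes. The levels of 4 of 7 members (H2-Aa, H2-Ab1, H2-Eb1 and Cd74) were higher in ABCG1KO without overlap, where 23.9% of all genes tested were (24.2% were lower without overlap). edgeR called 0 members, against 16% of genes in either direction (7.21% higher and 8.83% lower). Unadjusted p-values were under 0.05 for 2 of 7 members, beside 31.5% of all genes, and DESeq2 called 1, beside 3239 genes (23.4% of the 13821). The median log2 fold change was 1.36 over the members and 0.01 over all genes tested.

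H2-Eb1 had the largest difference, 2.66 on the log2 scale (standard error, SE, 0.938; adjusted p 0.0967 from edgeR), or 6.31-fold, with a 95% interval of 0.48 to 4.84 on the log2 scale. H2-Ab1 followed at 2.28 (SE 0.873, edgeR adjusted p 0.120) and H2-Aa at 1.92 (SE 0.847, edgeR adjusted p 0.168). Cd74 was at 1.36 (SE 0.899) and H2-DMa at 1.03 (SE 0.671). H2-DMb1, at 0.07 (95% interval -0.67 to 0.82), and Ciita, at 0.02 (95% interval -2.71 to 2.76), had estimates near 0, and the interval of Ciita spans changes of several fold either way. WT 2 set much of this: without it edgeR called H2-Eb1 (log2 fold change 3.96, adjusted p 0.0355) and H2-Ab1 (3.50, adjusted p 0.0378). The values of the others without WT 2 were 3.07 for H2-Aa, 2.61 for Cd74, 1.93 for H2-DMa, 0.48 for H2-DMb1 and 1.81 for Ciita, none of them called. Without WT 1 or WT 3, the estimate for Ciita was -0.41 or -0.42 and that for H2-DMb1 -0.05 or -0.14. DESeq2 called H2-Eb1 (2.67, adjusted p 0.0476).

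ABCG1KO against LysM-DKO compares both knockouts directly, though the sexes were not balanced between them. Here 6 of 7 members, all but Ciita, were higher in ABCG1KO without overlap, against 22.6% of genes tested. edgeR called 0 of 7, where 13.4% of genes were called in either direction, 5.64% higher and 7.76% lower in ABCG1KO. Unadjusted p-values were under 0.05 for 5 of 7 members, beside 30.9% of all genes, and DESeq2 called 4 (H2-Aa, H2-Ab1, H2-Eb1 and H2-DMa), beside 2982 genes (21.6% of the 13821). The median log2 fold change was 2.16 over the members and -0.03 over all genes.

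The largest difference was again in H2-Eb1, at 3.39 on the log2 scale (SE 0.958, edgeR adjusted p 0.0559 by Benjamini-Hochberg), or 10.5-fold. H2-Ab1 differed by 3.00 (SE 0.889, edgeR adjusted p 0.0640), H2-Aa by 2.63 (SE 0.859, edgeR adjusted p 0.0837) and Cd74 by 2.16 (SE 0.907, edgeR adjusted p 0.153). H2-DMa differed by 1.79, H2-DMb1 by 0.70 and Ciita by 0.92, the last with a 95% interval of -1.78 to 3.63. Without LysM-DKO 2, Ciita differed by 2.61, H2-DMa by 2.48 and H2-Eb1 by 4.08. Without LysM-DKO 1 or LysM-DKO 3, Ciita differed by 0.50 or 0.52. In a fit without WT 2, which takes no part in this contrast but enters the shared spread, edgeR called H2-Aa (2.65), H2-Ab1 (3.02) and H2-Eb1 (3.42). Without robust estimation of the spread, edgeR called H2-Eb1 (adjusted p 0.0473).

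The libraries labelled LysM-DKO were compared with WT for the effect of that genotype, as far as the label holds. Most epsin counts remained in them, and counts per gene do not show whether a transcript was complete. No member separated the groups, where 11% of genes tested were higher and 9.98% lower in LysM-DKO without overlap. edgeR called 0 of 7 members and 0.0362% of all genes (0.0217% higher and 0.0145% lower), no member had an unadjusted p under 0.05, beside 11.7% of all genes, and DESeq2 called 0 members, beside 299 genes (2.16%). Log2 fold changes were -0.62 (H2-DMb1) to -0.90 (Ciita), with a median of -0.74 against 0.02 over all genes. For Cd74 the 95% interval was -2.71 to 1.11, which holds both a doubling and a fall by 2 on the log2 scale. The negative sign rested on WT 2 for 6 members: without it the values were 0.41 for H2-Aa, 0.48 for H2-Ab1, 0.54 for H2-Eb1, 0.11 for H2-DMa, 0.42 for Cd74 and 0.87 for Ciita. LysM-DKO 1, the library of that group with Y-linked transcripts, was its lowest for each member but H2-DMa, and the part of sex in this was not tested. The comparisons share libraries, so their values are not independent.

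**Figure D2:**
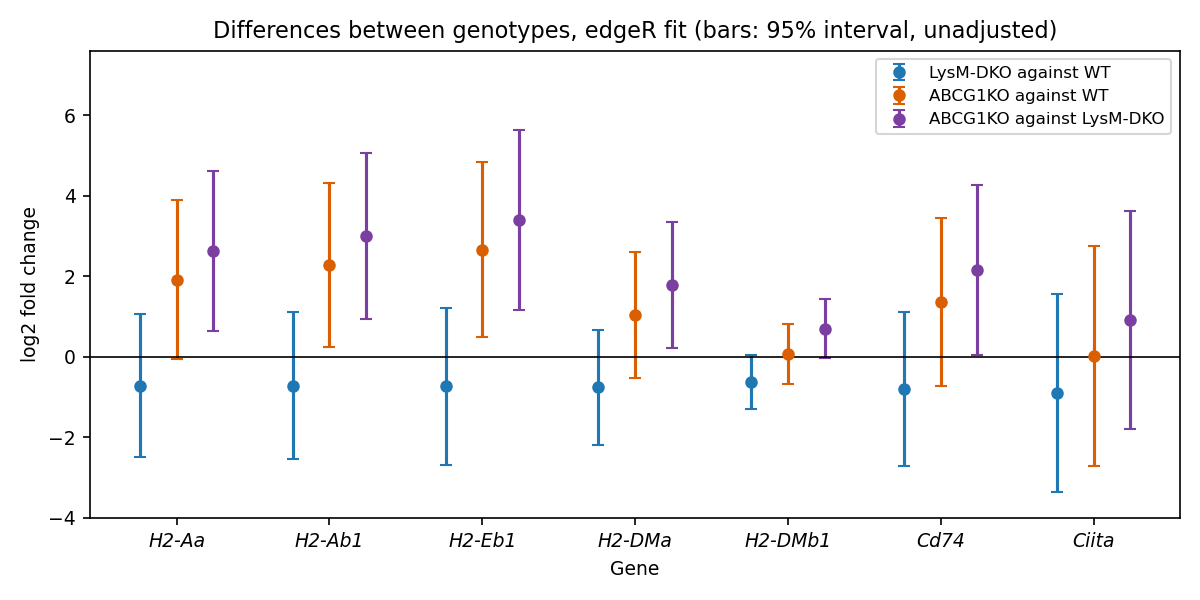
Log2 fold change of each gene in the 3 comparisons (points) with unadjusted 95% intervals from the edgeR fit (bars). The intervals of LysM-DKO against WT all include 0, and those of ABCG1KO against LysM-DKO lie above 0 for H2-Aa, H2-Ab1, H2-Eb1, H2-DMa and, narrowly, Cd74.

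Ratios of counts within a library remove what moves all members alike. H2-Eb1 counts were 0.590 to 0.713 times those of H2-Aa in WT, 0.577 to 0.700 in LysM-DKO, and 1.14 and 1.15 in ABCG1KO. The H2-Eb1 to H2-Aa ratio thus held within a narrow range in 6 libraries whose H2-Aa level ran from 41.7 to 523 CPM, and was 1.77 times higher in ABCG1KO than in WT. The ratio of H2-Ab1 to H2-Aa was 0.883 to 0.987 in WT, 0.944 to 0.985 in LysM-DKO, and 1.27 and 1.23 in ABCG1KO. Cd74 went the other way, at 3.56 to 4.13 and 3.51 to 3.98 times H2-Aa in WT and LysM-DKO and 2.59 and 2.89 times in ABCG1KO.

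The ratio of H2-DMa to H2-DMb1 was 0.537 to 1.07 in WT, 0.502 to 1.04 in LysM-DKO, and 1.81 and 1.42 in ABCG1KO. These 4 ratios separated ABCG1KO from the other groups. The exact two-sided permutation test used here doubles the smaller tail, and with 3 libraries against 2 it cannot go below p = 0.2. These comparisons reached that value (0.323 after Benjamini-Hochberg adjustment over 21 tests of 7 ratios), so this test cannot pass a threshold of 0.05 here. Of the other 3 ratios, all to H2-Aa, that of H2-DMb1 was 0.0791 and 0.0799 in ABCG1KO against 0.203 to 0.480 in WT and 0.229 to 0.952 in LysM-DKO. The ratio of Ciita was 0.0179 to 0.0198 in ABCG1KO, also below the other groups (0.0438 to 0.0806 and 0.0207 to 0.0870). The ratio of H2-DMa, at 0.112 to 0.144 in ABCG1KO, lay below WT (0.216 to 0.305) but overlapped LysM-DKO (0.127 to 0.560, exact permutation p = 0.4).

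**Figure D3:**
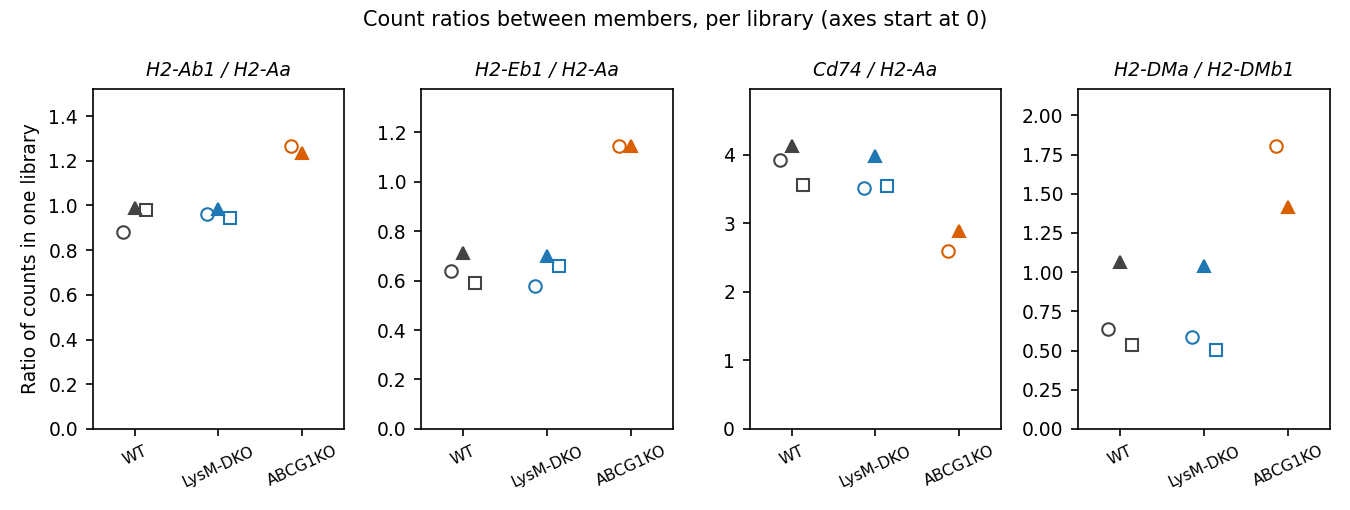
Ratio of counts of 2 members within each library, by genotype, on linear axes that start at 0. WT and LysM-DKO points overlap in all 4 panels, and both ABCG1KO points lie above them for H2-Ab1, H2-Eb1 and H2-DMa and below them for Cd74.

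Across the 8 libraries the classical chains and Cd74 were closest to each other. The 6 pairs among H2-Aa, H2-Ab1, H2-Eb1 and Cd74 had Pearson correlations of 0.975 to 0.999 on the log2(CPM + 1) scale, and the 3 pairs among H2-DMa, H2-DMb1 and Ciita had 0.909 to 0.917. The 12 pairs that join one gene of each kind had 0.771 to 0.912, and their range overlaps that of the 3 pairs. With the group means removed, the ranges were 0.996 to 1.00, 0.957 to 0.974 and 0.806 to 0.892. These are descriptions over 8 libraries, whose points share group means, the high libraries 2 and the scaling of each library.

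Per kilobase of transcript, Cd74 was highest and Ciita lowest in each group. With the length of the union of exons, the mean level of H2-Aa was 65.5 ± 62.6 CPM per kilobase (SD, n = 3) in WT, 39.9 ± 28.0 in LysM-DKO (n = 3) and 247 ± 5.10 in ABCG1KO (n = 2). The means of H2-Ab1 were 93.9 ± 92.7, 57.2 ± 40.9 and 457 ± 0.486, and those of H2-Eb1 87.6 ± 90.3, 52.6 ± 39.5 and 553 ± 12.1. With this length H2-Ab1 was above H2-Aa in every library. With the length of the principal transcript, H2-Ab1 was below H2-Aa in every WT and LysM-DKO library. The order of the classical chains thus changed with the length used, as did that of H2-DMa and H2-DMb1 in ABCG1KO, so no order is read among them.

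The other class II chains were scarce. H2-Oa and H2-Ob encode H2-O, an inhibitor of H2-DM found mainly in B cells. H2-Ob was at 0.15, 1.88 and 0.05 CPM in WT, 0, 0.24 and 0.02 in LysM-DKO, and 4.08 and 1.49 in ABCG1KO. H2-Oa reached at most 1.00 CPM, H2-Eb2 at most 1.66 and H2-DMb2 at most 6.08. Of the 4 chains tested, edgeR called 0 in each comparison. In ABCG1KO against LysM-DKO, 2 had an unadjusted p under 0.05 and DESeq2 called 1, while in the comparisons with WT both numbers were 0.

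Among genes that process antigen for class II, the list median was between -0.30 and -0.06 in the 3 comparisons on the log2 scale, and levels ran from at most 0.66 CPM (Tspan33) to 30696 CPM (Ctsd). Of 16 tested, which include the protease Lgmn and the thiol reductase Ifi30, edgeR called 1 lower in ABCG1KO against WT, where DESeq2 called 5 lower. In LysM-DKO against WT edgeR called 0 (4 at an unadjusted p under 0.05, 3 lower by DESeq2), and in ABCG1KO against LysM-DKO 0 (5 unadjusted, 2 higher and 2 lower by DESeq2). The called gene was Ctss, the protease that trims the invariant chain, at 9496, 7030.1 and 8096 CPM in WT and 3392 and 4504 CPM in ABCG1KO (a difference of -1.06 on the log2 scale, SE 0.220, edgeR adjusted p 0.0171). Ctss was at 5424, 4977 and 5468 CPM in LysM-DKO. Ifi30 was at 295 to 471 CPM in WT, 141 to 274 in LysM-DKO, and 501 and 392 in ABCG1KO.

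Of 15 genes of the class II transcription machinery, edgeR called 1 lower in ABCG1KO against WT. This was Nfyc, a subunit of the factor that binds the Y box, at 25.1 to 31.2 CPM in WT and 9.25 and 9.95 CPM in ABCG1KO (-1.51 on the log2 scale, SE 0.164, edgeR adjusted p 0.000875). Against LysM-DKO, Nfyc was also lower (-1.51) and Irf4, an interferon regulatory factor, higher (2.39, SE 0.632, edgeR adjusted p 0.0423). Rfx5, which binds the X box, was at 8.97 to 14.3 CPM in WT, 9.86 to 15.1 in LysM-DKO, and 19.8 and 14.9 in ABCG1KO, and was not called.

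Interferon gamma acts through a receptor that signals by the kinases JAK1 and JAK2. Of 9 genes of this route, edgeR called Ifngr1, a receptor chain, and Jak2 higher in ABCG1KO against WT, by 1.03 (SE 0.259, edgeR adjusted p 0.0323) and 0.55 (SE 0.154, edgeR adjusted p 0.0443) on the log2 scale. Without WT 2 edgeR called neither, and the list median was 0.44 instead of 0.36. Ifngr1 was at 126 to 190.1 CPM in WT, 125 to 199.7 in LysM-DKO, and 344 and 274 in ABCG1KO. Ifng itself, the gene of the cytokine, was at most 0.22 CPM in any library.

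Genes that interferon gamma induces were high in the same WT and LysM-DKO libraries as the class II genes. WT 2 and LysM-DKO 2 were both the highest of their groups for 22 of 22 tested genes of this list and for 7 of 7 class II members, against 1985 of all 13821 genes tested (14.4%). This list and the members were chosen with earlier results of these data known, so these counts are descriptions and not a test. The next 2 genes were also chosen after their values were seen. Gbp2, a guanylate-binding protein, was at 19.1, 322 and 15.6 CPM in WT, 9.28, 70.2 and 17.6 in LysM-DKO, and 48.0 and 24.1 in ABCG1KO. Iigp1, an immunity-related GTPase, was at 79.96 CPM in WT 2 and 109 CPM in LysM-DKO 2 and at most 2.95 CPM in the other 6 libraries.

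In ABCG1KO the levels of the class II genes and of the interferon list followed different orders. Summed over the list, interferon gamma induced genes were at 386, 1760 and 356 CPM in WT, 342, 1214 and 376 in LysM-DKO, and 483 and 424 in ABCG1KO. The class II members summed to 877, 3833 and 711 CPM in WT, 318, 1832 and 1045 in LysM-DKO, and 5773 and 6169 in ABCG1KO. The ABCG1KO libraries thus had the highest class II sums of all 8 but interferon sums far below those of WT 2 and LysM-DKO 2. Of the 22 tested interferon genes, edgeR called 0 in each comparison, with 2 at an unadjusted p under 0.05 in ABCG1KO against WT and 1 in each of the others. DESeq2 called 2 lower in ABCG1KO against WT, 1 lower in ABCG1KO against LysM-DKO and 0 in LysM-DKO against WT. The median log2 fold change in ABCG1KO against WT was -1.21, and 0.88 without WT 2, with 20 genes left to test. In ABCG1KO against LysM-DKO it was -0.94, and 0.74 without LysM-DKO 2. For the class II members, both comparisons had positive medians. Whether WT 2 and LysM-DKO 2 were prepared together is not stated in the labels, and the part of handling in their levels was not tested.

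**Figure D4:**
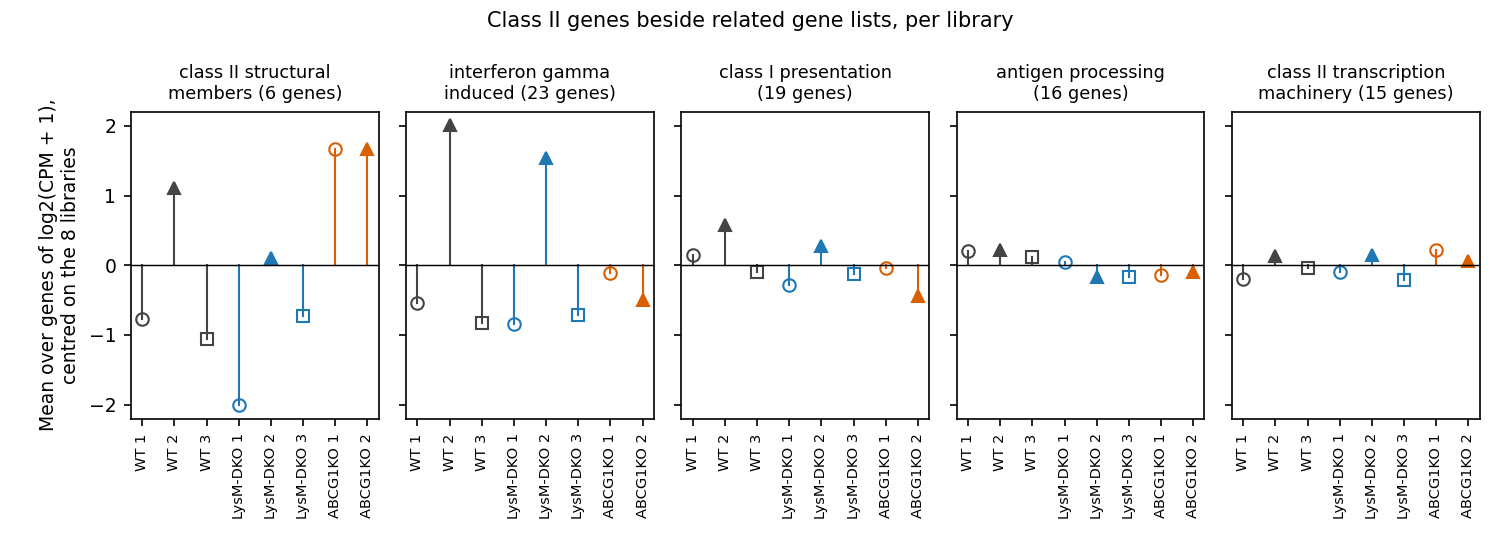
Mean over the genes of each list of log2(CPM + 1), centred on the 8 libraries, for each library. WT 2 and LysM-DKO 2 stand up in the class II and interferon panels, whereas ABCG1KO is highest of all in the class II panel and below 0 in the interferon panel, and the processing and transcription lists vary little.

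Class I presentation displays peptides of cytosolic proteins to CD8+ T cells. Of 18 class I genes tested, 14 were highest in both WT 2 and LysM-DKO 2, and edgeR called 2 lower and 0 higher in ABCG1KO against WT. These were Psme2, a proteasome activator subunit (-3.05 on the log2 scale, SE 0.273, edgeR adjusted p 0.000298), and H2-T23 (-2.08, SE 0.247, edgeR adjusted p 0.00138). Psme2 shares 28.3% of its 50-base words with its copy Psme2b and H2-T23 14.5% with other genes, so both levels are uncertain, and the part of the higher share of reads with several alignments in ABCG1KO was not tested. B2m, the class I light chain, was at 1748 to 2822 CPM in WT, 1117 to 2047 in LysM-DKO, and 1698 and 1452 in ABCG1KO. Nlrc5, the class I counterpart of Ciita, was at 14.01, 51.7 and 14.3 CPM in WT, 13.7, 60.2 and 21.6 in LysM-DKO, and 27.2 and 16.6 in ABCG1KO, again highest in the libraries 2.

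The genes whose levels most resembled the 6 structural members, that is all but Ciita, were ranked among 8505 genes with a mean of at least 10 CPM. The measure was the Pearson correlation over the 8 libraries of log2(CPM + 1) with the members' mean. App, the amyloid precursor protein, came first at 0.966, with 757, 1097 and 719 CPM in WT, 658, 970.1 and 788 in LysM-DKO, and 1626 and 1596 in ABCG1KO. Cgnl1 (0.955), Bst1 (0.944), the complement gene C4b (0.943) and Adgre1 (0.941), which encodes the macrophage marker F4/80, followed. Irg1 (0.934), the copper transporter Slc31a1 (0.931), Naip1 (0.930) and Clec2g (0.926) were also among the 10 highest. With the group means removed App was again first, at 0.993, while Cgnl1 ranked 81, Bst1 118, C4b 84 and Adgre1 11. By that measure Irg1 ranked 27, Slc31a1 51, Naip1 42 and Clec2g 170. Ciita ranked 90 over the 8 libraries, at 0.847, and 38 with the group means removed, at 0.931.

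Dendritic cells, B cells and monocyte-derived macrophages express class II genes, and their markers were read beside the members. Of the macrophage genes, Csf1r was at 909.5 to 1652 CPM in WT, 1085 to 1292 in LysM-DKO, and 3051 and 2655 in ABCG1KO. Csf1r (log2 fold change 1.19) and Adgre1 (1.21) rose in ABCG1KO against WT by edgeR, among 5 of 14 macrophage markers called higher. Cd68 was called lower (-1.06), 8 of the 14 had a negative value, and the list median was -0.16. Not all macrophage markers were high: Cd163, a scavenger receptor, was at 0.78 to 6.97 CPM in WT and LysM-DKO and 55.7 and 26.4 in ABCG1KO. Lyz2, the lysozyme of myeloid cells, was at 13004 to 15709.5 CPM in WT, 6177 to 8105 in LysM-DKO, and 14412 and 11237 in ABCG1KO.

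Of 12 monocyte markers tested, edgeR called 5 higher and 0 lower in ABCG1KO against WT, and the summed level was 908 to 1627 CPM in WT, 1377 to 2136 in LysM-DKO, and 8385 and 3968 in ABCG1KO. Ccr2, the receptor by which monocytes leave the marrow, was at 1.29 to 5.47 CPM in WT, 2.41 to 3.75 in LysM-DKO, and 127 and 40.2 in ABCG1KO (4.61 on the log2 scale, SE 0.660, edgeR adjusted p 0.00446). The Ccr2 levels of both ABCG1KO libraries lay far apart. Of the members, H2-Aa, H2-Ab1, H2-Eb1 and H2-DMb1 had close levels in both, and Ciita was at 18.3 and 17.1 CPM. H2-DMa was at 133 and 107 CPM and Cd74 at 2392 and 2752 CPM. Resident peritoneal macrophage markers were also called higher for 7 of 18 and lower for 1, with summed levels of 1280 to 1761, 1112 to 1868, and 17078 and 7929.5 CPM in WT, LysM-DKO and ABCG1KO. Saa3 alone made up 9953 and 2971 CPM of the ABCG1KO sums, and without it they were 7125 and 4959 CPM, against 1274 to 1637 in WT and 1109 to 1822 in LysM-DKO. The marker called lower was Fabp4 (-1.19), a fatty acid binding protein. Of small peritoneal macrophage markers, 4 of 11 were called higher and 1 lower. Gata6, a factor of resident peritoneal macrophages, was at 7.04 to 17.0 CPM in WT, 1.99 to 28.0 in LysM-DKO, and 28.7 and 32.6 in ABCG1KO.

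Dendritic cell markers were low apart from Itgax, which macrophages also express. Their summed level was 1304 to 2432 CPM in WT, 501 to 1110 in LysM-DKO, and 233 and 528 in ABCG1KO, and of 12 tested edgeR called 2 higher and 1 lower in ABCG1KO against WT. Without Itgax the sums were 56.3 to 125 CPM in WT, 48.4 to 154 in LysM-DKO, and 124 and 222 in ABCG1KO, and the list median in ABCG1KO against WT was 0.70, with 8 of 12 positive. Itgax, which encodes CD11c, fell by 3.17 on the log2 scale, from 1179 to 2376 CPM in WT to 109 and 306 CPM. Flt3, a defining marker, had 0 counts in 6 libraries and at most 0.31 CPM. Zbtb46 was at 0.28 to 1.16 CPM in WT, 0.44 to 1.92 in LysM-DKO, and 5.21 and 2.62 in ABCG1KO. Siglech was at 5.68 and 4.76 CPM in ABCG1KO and at most 0.07 CPM elsewhere.

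B cell markers were low apart from Cd22. Their summed level was 120.1 to 174 CPM in WT, 101 to 137 in LysM-DKO, and 58.8 and 58.6 in ABCG1KO, and edgeR called 0 of 12 higher and 1 (Cd22) lower in ABCG1KO against WT, with a list median of -0.80. Without Cd22 the sums were 18.6, 60.9 and 7.07 CPM in WT, 4.22, 9.68 and 7.97 in LysM-DKO, and 31.0 and 8.40 in ABCG1KO. WT 2 was the highest WT library in these sums, and LysM-DKO 2 was narrowly the highest of its group. With Cd22, LysM-DKO 1 was the highest of its group, at 137 CPM against 118 CPM in LysM-DKO 2. Of the 12 tested markers, 10 were highest in WT 2 among WT and 5 in LysM-DKO 2 among LysM-DKO. In LysM-DKO against WT the list median was -3.81, with 11 of 12 negative, 0 called by edgeR, 7 at an unadjusted p under 0.05 and 5 called lower by DESeq2. In ABCG1KO against LysM-DKO it was 3.00, with 10 of 12 positive, 0 called higher and 1 lower by edgeR, and 2 higher and 1 lower by DESeq2. Cd79a, part of the B cell receptor, was at 2.87, 9.55 and 1.22 CPM in WT, 0, 0.34 and 0.27 in LysM-DKO, and 5.71 and 0.35 in ABCG1KO. Ms4a1, which encodes CD20, was at 0.85, 6.99 and 0.36 CPM in WT, at most 0.22 in LysM-DKO, and 1.60 and 0.09 in ABCG1KO. WT 2 was the highest WT library for both these genes and the members. The part of B cells, dendritic cells, monocytes or resident macrophages in the class II values was not tested.

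**Figure D5:**
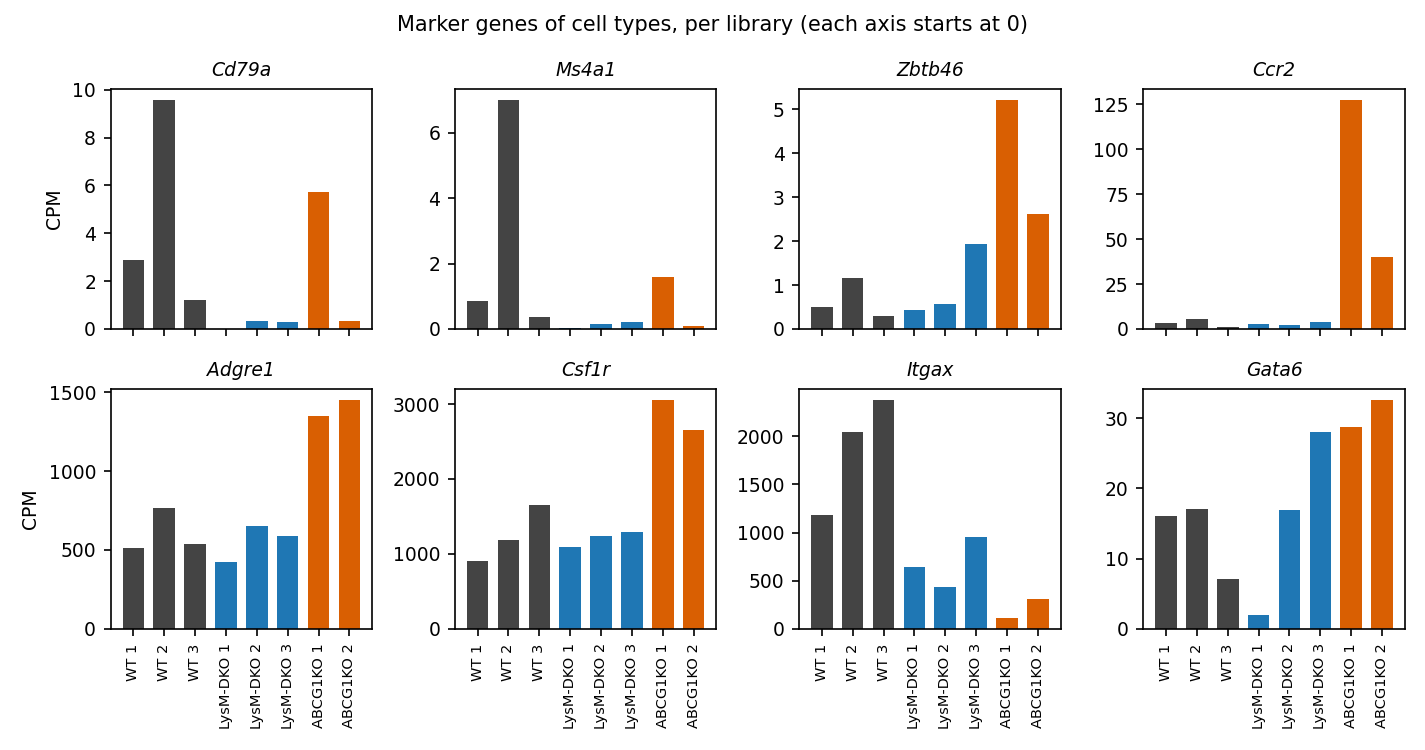
Level of 8 marker genes in each library in CPM, on linear axes that start at 0 and differ between panels. Ccr2, Csf1r and Adgre1 are highest in both ABCG1KO libraries, whereas the B cell genes Cd79a and Ms4a1 peak in WT 2 and differ between the ABCG1KO libraries.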

How the data were processed

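Counts per gene symbol were deposited by the authors, 1 file per library, and the ending lines of each file are those of htseq-count. The submitters' processing notes list STAR 2.7.9a, TopHat, HTSeq 0.11.2, DESeq2 1.30.1, limma and build mm10, without role or order, and annotation and strand setting are not given in the sources used here. Reads assigned to no gene stayed out of library sizes and tests (the largest classes are given in the report).

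The counts of all 8 libraries entered 1 fit in edgeR 4.0.16 (R 4.3.3), with TMM factors, filterByExpr (13821 genes kept), a term per genotype and robust quasi-likelihood estimation of the spread. Calls required an adjusted p under 0.05 (Benjamini-Hochberg, over all genes tested), and no adjusted p refers to a list alone. The fit was tested on simulated data. The biological coefficient of variation was 36.1%. Replicate numbers came from the sample titles.

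The members and gene lists were chosen with earlier results of these data known. All members are named, with at most 5 called genes per list by adjusted p, listed markers and the 10 most alike genes, of which 1 is not reported here. DESeq2 1.42.0, other scalings, other count filters, the 2 groups alone, a block on the replicate number and fits without each library were the alternatives, and non-robust estimation was added after seeing the data. Gene models were GENCODE M21 and promoter windows RefSeq, GRCm38.p6.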

Additional observations from a re-analysis of the deposited data

How the results depend on the processing

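Of the 7 members in 16 alternatives each, 106 of 112 values in LysM-DKO against WT, 104 in ABCG1KO against WT and 104 in ABCG1KO against LysM-DKO kept their sign and their side of the threshold. Signs turned in LysM-DKO against WT without WT 2 (H2-Aa 0.41, H2-Ab1 0.48, H2-Eb1 0.54, H2-DMa 0.11, Cd74 0.42, Ciita 0.87). Without LysM-DKO 2 the values were -1.31, -1.34, -1.40, -1.44, -1.49 and -2.57 in that order. Signs also turned in ABCG1KO against WT for H2-DMb1 without WT 1 (-0.05) or WT 3 (-0.14) and for Ciita without WT 1 (-0.41), WT 3 (-0.42) or ABCG1KO 1 (-0.03), and Ciita was at 1.81 without WT 2. Members called numbered 0 in LysM-DKO against WT throughout. DESeq2 called 1 in ABCG1KO against WT and 4 in ABCG1KO against LysM-DKO, and non-robust estimation called 1 in the latter. Leaving out 1 library gave 0 to 2 and 0 to 3.

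Genes called in LysM-DKO against WT were 5, and 3 with at least 10 counts in every library or non-robust estimation, 299 with DESeq2, 8 with only the 2 groups fitted and 0 to 8 without 1 library. In ABCG1KO against WT they were 2216, and 853 to 2090 without 1 library. In ABCG1KO against LysM-DKO they were 1853, 2982 with DESeq2, 948 with only the 2 groups fitted and 561 to 1960 without 1 library. Scaling by library size alone turned the split in ABCG1KO against WT to 2074 higher and 856 lower, and in ABCG1KO against LysM-DKO to 1018 higher and 877 lower. It kept the sign of every member.

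The labels do not say what a shared number means. Deviations from group means of libraries with the same number correlated at -0.09 to 0.43, highest for WT 2 with LysM-DKO 2, and not all pairs passed 0.1, so the numbers were not taken to pair the samples. With a replicate block, the genes called were 0, 1456 and 1024 in the order above, and the members called remained 0. Depth did not limit the members, whose lowest count was 106, for Ciita in LysM-DKO 1.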

Other observations

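The 4 remaining marker lists were read for cells that can accompany macrophages. T and NK cell markers summed to 494 to 750 CPM in WT and LysM-DKO and to 70.8 and 184 CPM in ABCG1KO. Of the 13 genes summed, 2 to 8 had 0 counts in a given library, so the sums rest on part of the list. Centred log2(CPM + 1), averaged over the list, was -0.06 to 0.23 in WT and LysM-DKO and -0.20 and -0.06 in ABCG1KO. Il7r was the 1 gene of 7 called, lower by edgeR (log2 fold change -2.48 against WT). Of 7 neutrophil markers tested, edgeR called Csf3r, a growth factor receptor, higher in ABCG1KO against WT (1.40). Of 6 mast cell and eosinophil markers, it called Kit higher against WT (4.35), with summed levels of 50.9 and 14.3 CPM in ABCG1KO and 2.88 to 29.9 CPM elsewhere. Of 11 mesothelial and fibroblast markers, it called Lum lower against WT (-3.59). In LysM-DKO against WT, edgeR called 0 genes of each of these lists. In ABCG1KO against LysM-DKO it called 4 of the 6 mast cell and eosinophil markers higher, with a list median of 5.12. Of all genes, 5.64% were called higher there. In the same comparison it called 1 T and NK marker lower, 1 neutrophil marker higher and 0 mesothelial and fibroblast markers.

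In ABCG1KO, the raw Ciita counts were 583 and 724, beside 29491 and 40369 counts of H2-Aa. In WT 2 the same genes had 1526 and 18941 counts. WT 2 thus had a higher count of the transactivator gene and a lower count of the class II chain than either ABCG1KO library. This did not hold for WT 1 and WT 3. They had 180 and 184 counts of Ciita and 4110 and 3981 of H2-Aa, all below ABCG1KO. These counts are not scaled for depth.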
